A study of Mus musculus with 10 samples.

Results

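The genes described here serve the release, storage and buffering of calcium in skeletal muscle fibers. They are 9 named genes, Ryr1, Cacna1s, Stac3, Jph1, Jph2, Casq1, Casq2, Hrc and Pvalb, out of 16112 genes with read counts, and they were chosen by name for their place in the triad or for holding calcium, by a rule that uses no expression value but with earlier results of these data known; all 9 were found in the count tables by their Ensembl identifiers. The study compared extensor digitorum longus (EDL) and psoas, both fast muscles, and soleus, a slow muscle, of wild type mice of the strain labelled B6C3Fe a/a-Ttnmdm/J, by sequencing total RNA of muscle tissue; the colony was founded from heterozygous carriers of the Ttn allele in that name. EDL and psoas had 3 libraries each and soleus had 4, and no group was treated or carried an altered gene per the labels. The mice were 32 to 54 days old, with 5 libraries from males, 4 from females and 1, soleus 3, with no sex given. The 10 libraries carry 7 animal codes, 3 of which gave more than 1 library (EDL 3 and soleus 2, psoas 1 and soleus 1, psoas 3 and soleus 4), so the libraries were not all independent; the methods of the study give fewer mice than there are codes, and which codes would be the same mouse is not given in the sources used here.

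Contraction begins when the voltage sensor of the transverse tubule, the dihydropyridine receptor, opens the ryanodine receptor of the facing sarcoplasmic reticulum. Junctophilins hold the membranes together in the triad, calsequestrins and the histidine-rich calcium binding protein keep calcium inside the store, and parvalbumin binds it in the cytosol of fast fibers, which speeds relaxation. Fast and slow fibers are long known to differ in their calsequestrin isoforms and in parvalbumin.

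Total counts per library ran from 12737971 (soleus 3) to 50431713 (psoas 1), so that a count of 3, the limit set by a count of 0, corresponded to 0.0595 to 0.2355 CPM (counts per 1000000 of a library's total), and each of the 9 genes lay far above it in every library. Of the myosin heavy chains, Myh4 and Myh7 set soleus apart from the fast muscles, but soleus also held much fast myosin RNA. Myh4, the myosin of the fastest fibers, was at 6280.4 to 9503 FPKM in the 6 EDL and psoas libraries and at 18.1 to 284 FPKM in soleus. Myh7, the slow myosin, was at 785 to 1516 FPKM in soleus and at no more than 13.4 FPKM elsewhere. The fast myosin Myh2 was higher in soleus, with means of 371, 549 and 1447 FPKM in EDL, psoas and soleus. Means of Myh1, also a fast myosin, were 1482, 1863 and 995 FPKM. FPKM here was computed by DESeq2 from its own size factors and the summed exon length in kilobases. It is the scale on which genes are set beside each other. Reads of EDL 1, EDL 2, psoas 1 and psoas 2 were trimmed for quality by the authors and those of the other 6 libraries were not, so trimming differed between muscles. Tendon markers (5 genes, none at 0 in any library) summed to 654 to 970.5 normalized CPM in EDL, 43.4 to 89.2 in psoas and 81.4 to 485 in soleus, and fibroblast markers (3 genes) to 1368 to 2763, 522 to 827 and 548 to 1006. Another covariate, called the run proxy, stands in for unlisted sequencing runs and has 3 levels, namely trimmed, untrimmed from mice of 44 days, and other untrimmed. Its last level held soleus 1 and soleus 3 and no library of another muscle, so a call lost with it cannot be assigned to sequencing runs. Calls that trimming or the run proxy ended as a covariate are named beside each result, and the part of the tendon and fibroblast markers in the differences was not tested.

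The store protein Casq1, the buffer Pvalb and both junctophilins were lower in soleus than in psoas, Casq2 was higher, and the release channel, the voltage sensor, its partner Stac3 and Hrc did not pass. A gene passed where edgeR's quasi-likelihood test gave a Benjamini-Hochberg adjusted p under 0.01 over all 16112 genes together with a fold change over 2. In soleus vs psoas 5 of the 9 passed, against 5.69% of all genes tested, with 1 of the 9 higher (2.99% of all genes) and 4 lower (2.71%). In soleus vs EDL 3 of the 9 passed, against 5.77% of all genes, with 1 higher (3.59% of all genes) and 2 lower (2.18%). In psoas vs EDL 0 of the 9 passed, against 2.11% of all genes (0.54% higher and 1.57% lower); DESeq2 and limma-voom also gave 0, and 3 of the 9 had an unadjusted p under 0.05 in edgeR's test. The median log2 fold change of the 9 genes was 0.60 in psoas vs EDL, −0.24 in soleus vs EDL and −0.57 in soleus vs psoas, where that of all genes was 0.01, −0.05 and 0.02. The 3 comparisons share their libraries pairwise, so they are not separate evidence, and in RNA of bulk muscle a smaller number of fibers of a type and less RNA per fiber cannot be told apart.

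**Figure D1:**
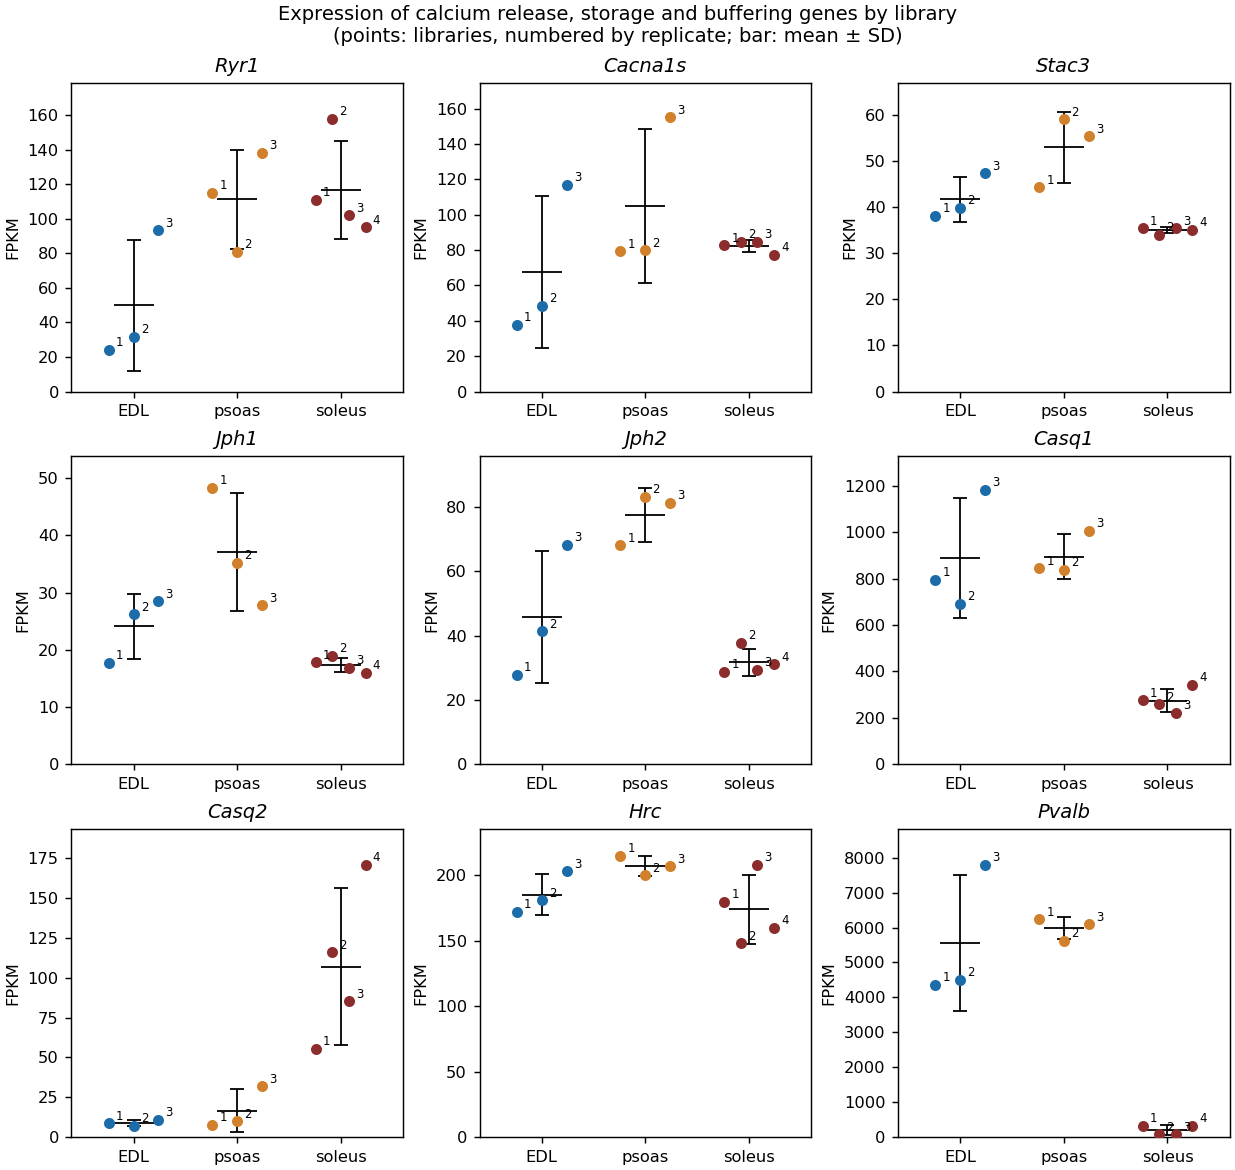
FPKM (y axes, each from 0) of the 9 genes in EDL, psoas and soleus; points are libraries numbered by replicate, horizontal bars means and error bars SD (n = 3, 3 and 4). Soleus lies below both fast muscles for Casq1 and Pvalb and above them for Casq2, while EDL 3 stands above EDL 1 and EDL 2 for Ryr1 and Cacna1s.

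Ranked by FPKM, Pvalb stood first in both fast muscles, at 5547 ± 1948 (SD, n = 3) in EDL and 5985 ± 323 (SD, n = 3) in psoas. Casq1 came next and Hrc after it in these muscles, and the ranges of the libraries of the 3 genes did not overlap within a muscle. Casq2 stood last in EDL, at 8.77 ± 1.75 FPKM, below every library of Jph1. Psoas gave it the same place, at 16.4 ± 13.5 FPKM, but there its range overlapped that of Jph1. In soleus the order was Casq1, Pvalb, Hrc, Ryr1, Casq2 and Cacna1s, and each of these overlapped the next in range, so their order is not resolved. Stac3, Jph2 and Jph1 followed, all below every library of Cacna1s. Across the 3 muscle means, the highest to lowest ratio was 30.2 for Pvalb, 12.2 for Casq2 and 3.27 for Casq1, and it was 1.19 for Hrc.

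Ryr1 (ENSMUSG00000030592, GRCm38 chr7:29003344-29125179, minus strand) encodes the calcium release channel. In EDL it was at 24.3, 31.8 and 93.3 FPKM in replicates 1 to 3, in psoas at 115, 80.8 and 138 FPKM, and in soleus at 111, 158, 102 and 95.0 FPKM in replicates 1 to 4. EDL 3 lay close to the other muscles and far above the other EDL libraries, so psoas overlapped EDL, while every soleus library was above EDL 3. The log2 fold change was 1.15 (SE 0.46, adjusted p = 0.1269) in psoas vs EDL and 1.24 (SE 0.44, adjusted p = 0.0709) in soleus vs EDL, and neither passed. Without EDL 3 they became 1.98 (adjusted p = 0.0048) and 2.07 (adjusted p = 0.0022), and both passed. EDL 3 was the only EDL library that was not trimmed, the only one from a female and the shallowest, and these properties cannot be told apart. Among trimmed libraries the psoas mean was 3.49 times that of EDL, and between the untrimmed psoas 3 and EDL 3 it was 1.48 times. In soleus vs psoas the log2 fold change was 0.09 (SE 0.43, adjusted p = 0.9183), and its direction turned in 6 alternatives. The summed exon length of Ryr1, 21838 bases, is longer than its longest transcript, 15358 bases, and with the latter its means would be 70.8, 159 and 166 FPKM in EDL, psoas and soleus.

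Cacna1s (ENSMUSG00000026407, chr1:136052750-136119822, plus strand) encodes the pore of the voltage sensor. EDL held 37.6, 48.5 and 117 FPKM, psoas 79.4, 79.9 and 155 FPKM, and soleus 82.7, 84.7, 84.7 and 77.4 FPKM. Replicate 3 was the highest in both fast muscles, soleus was narrow, and all groups overlapped. No comparison passed: the log2 fold change was 0.62 (SE 0.40, adjusted p = 0.3309) in psoas vs EDL, 0.29 (SE 0.37, adjusted p = 0.6070) in soleus vs EDL and −0.33 (SE 0.37, adjusted p = 0.6130) in soleus vs psoas. With read trimming as a covariate the last became −1.07 (adjusted p = 0.0077) and passed, and soleus vs EDL turned to −0.36. EDL 3 and psoas 3 were the untrimmed libraries of their muscles.

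Stac3 (ENSMUSG00000040287, chr10:127501686-127508823, plus strand), whose protein is needed to couple the voltage sensor to the release channel, varied little. It was at 38.2, 39.9 and 47.4 FPKM in EDL, at 44.4, 59.2 and 55.5 FPKM in psoas and at 35.5, 34.1, 35.5 and 35.2 FPKM in soleus. Soleus lay below every EDL and psoas library, while EDL and psoas overlapped. Of the 9 genes, 5 had libraries that did not overlap in soleus vs EDL, against 29.5% of all genes, 6 in soleus vs psoas, against 25.8%, and 0 in psoas vs EDL, against 29.6%. The log2 fold change of Stac3 was −0.57 (SE 0.15, adjusted p = 0.0286) in soleus vs psoas and −0.24 (SE 0.15, adjusted p = 0.2793) in soleus vs EDL, and under a fold of 2 in each of the alternatives.

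Within a library, the ratio of Ryr1 to Cacna1s per kilobase needs no library scaling. It was 0.648, 0.656 and 0.797 in EDL, 1.45, 1.01 and 0.890 in psoas, and 1.34, 1.87, 1.20 and 1.23 in soleus. EDL was below every psoas and soleus library, also in EDL 3, whose levels of both genes were high. The means were 0.700 ± 0.0837 (SD, n = 3), 1.12 ± 0.297 (SD, n = 3) and 1.41 ± 0.311 (SD, n = 4). The difference between soleus and EDL was 0.708, with p = 0.0571 in an exact two-sided permutation test over libraries, the smallest p that 4 against 3 libraries can give, and p = 0.229 after Benjamini-Hochberg adjustment over the 12 tests of such ratios. That between psoas and EDL was 0.419, with p = 0.100, the smallest for 3 against 3, and adjusted p = 0.300 in the exact permutation test; with psoas 3 and EDL 3 alone, the untrimmed pair, it was 0.0936. Soleus and psoas overlapped (exact permutation p = 0.286, adjusted p = 0.490). The choice of gene length scales this ratio by the same factor in all libraries. The ratio of Stac3 to Cacna1s averaged 0.748 ± 0.313 in EDL, 0.553 ± 0.192 in psoas and 0.427 ± 0.0217 in soleus, with overlapping libraries throughout, and the lowest value of each fast muscle was in replicate 3.

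**Figure D2:**
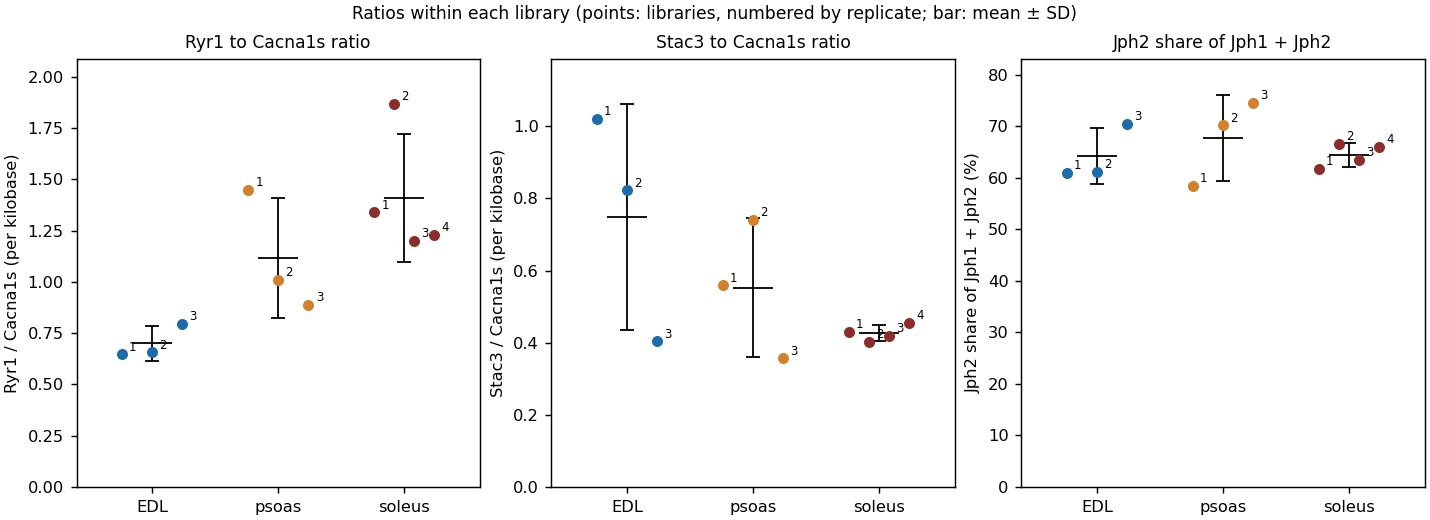
Ratios within each library (y axes from 0), per kilobase of exon: Ryr1 to Cacna1s, Stac3 to Cacna1s and the percent of Jph2 in the sum of Jph1 and Jph2; points are libraries numbered by replicate, bars mean ± SD. The 3 EDL libraries have the lowest Ryr1 to Cacna1s ratios (0.648 to 0.797), and the Jph2 share overlaps between all muscles.

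Jph1 (ENSMUSG00000042686, chr1:16964560-17097889, minus strand) encodes the junctophilin typical of skeletal muscle. Its level was 17.7, 26.2 and 28.5 FPKM in EDL, 48.3, 35.2 and 27.8 FPKM in psoas and 17.8, 18.9, 16.8 and 16.0 FPKM in soleus. Soleus lay below every psoas library and overlapped EDL. In soleus vs psoas the log2 level of Jph1 fell by 1.06 (SE 0.21, adjusted p = 0.0067), which passed in 12 of 23 alternatives, with adjusted p from 4.0e-05 to 0.0895. The call was lost with the trimming covariate (−1.02, adjusted p = 0.0372), the run proxy (−0.99, 0.0895) and sex as covariate (−1.04, 0.0210). It was also lost without psoas 1 (−0.86, adjusted p = 0.0272), psoas 2 (0.0226), EDL 2 (0.0113) or any of the soleus libraries 1 to 4 (0.0155 to 0.0246), each as an adjusted p. The other comparisons did not pass, at 0.60 (SE 0.23, adjusted p = 0.1104) in psoas vs EDL and −0.46 (SE 0.21, adjusted p = 0.1467) in soleus vs EDL.

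Jph2 (ENSMUSG00000017817, chr2:163336242-163397993, minus strand), the junctophilin that the heart also uses, followed the same order of muscles. It was at 27.8, 41.3 and 68.2 FPKM in EDL, at 68.0, 83.2 and 81.2 FPKM in psoas and at 28.7, 37.7, 29.3 and 31.1 FPKM in soleus. The psoas libraries were all above soleus, and EDL reached from below the lowest soleus library into the psoas range. In soleus vs psoas its log2 level fell by 1.26 (SE 0.26, adjusted p = 0.0083), a call made in 13 of 23 alternatives, with adjusted p up to 0.0321; it was lost with the run proxy (−1.52, adjusted p = 0.0143), and the other losses included EDL 2 and each psoas and soleus library when left out (0.0135 to 0.0321). In psoas vs EDL its log2 fold change of 0.74 (SE 0.28, adjusted p = 0.1108) became 1.15 (adjusted p = 0.0077) and passed without EDL 3. In soleus vs EDL it was −0.52 (SE 0.26, adjusted p = 0.1844). With the replicate number as a block the calls of Jph1 (adjusted p = 0.0410) and Jph2 (adjusted p = 0.0222) in soleus vs psoas were lost. Between the untrimmed libraries alone, soleus held 0.626 times the Jph1 and 0.390 times the Jph2 of psoas 3.

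The sum of both junctophilins was 69.9 ± 25.7 FPKM in EDL, 115 ± 4.93 FPKM in psoas and 49.1 ± 5.06 FPKM in soleus. The psoas sums (109 to 118 FPKM) lay above those of EDL (45.5 to 96.7) and soleus (46.1 to 56.7). EDL and soleus overlapped, and the sums were not tested. Jph2 made up 64.2% ± 5.45 of the sum in EDL (SD, n = 3), 67.7% ± 8.29 in psoas (n = 3) and 64.4% ± 2.28 in soleus (n = 4). The libraries' shares overlapped in all comparisons. The smallest p of the 3 exact permutation tests of this share was 0.457, with adjusted p = 0.549. The longest run of identical bases shared by transcripts Jph1-201 (4809 bases) and Jph2-201 (4211 bases) of GENCODE M21 was 35 bases, in the coding part of both. It is given in capitals with its surroundings, 5′ to 3′ on the transcript, from chr1:17091554-17091628 and chr2:163375860-163375934, both on the minus strand of GRCm38.
Jph1: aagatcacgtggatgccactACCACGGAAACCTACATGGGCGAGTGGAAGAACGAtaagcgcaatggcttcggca
Jph2: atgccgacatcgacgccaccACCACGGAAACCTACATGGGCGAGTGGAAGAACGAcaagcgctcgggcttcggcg
Bases just outside the capitals differ between the genes.

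Casq1 (ENSMUSG00000007122, chr1:172209894-172219868, minus strand) encodes the main calcium-binding protein inside the sarcoplasmic reticulum of fast fibers. It was at 794, 691 and 1183 FPKM in EDL, at 844, 837 and 1005 FPKM in psoas and at 275, 259, 221 and 342 FPKM in soleus. All soleus libraries lay below all fast ones, and EDL and psoas overlapped. Casq1 fell by 1.69 on the log2 scale in soleus vs EDL (SE 0.24, adjusted p = 0.0011), which is 3.22-fold. In soleus vs psoas it fell by 1.68 (SE 0.24, adjusted p = 0.0011), and both calls were made in 23 of 23 alternatives, with adjusted p up to 0.0056. Psoas vs EDL gave −0.01 (SE 0.26, adjusted p = 0.9875). In mice that gave 2 libraries, soleus held 0.219 times the Casq1 of EDL in animal 765A, and 0.326 and 0.340 times that of psoas in animals 659 and 765B.

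Casq2 (ENSMUSG00000027861, chr3:102086415-102146514, plus strand), the calsequestrin of heart and slow fibers, ran the other way. It was at 8.56, 7.13 and 10.6 FPKM in EDL, at 7.65, 9.73 and 31.9 FPKM in psoas and at 55.4, 116, 85.1 and 171 FPKM in soleus. Each soleus library was above psoas 3, which stood well above the other fast libraries. Casq2 rose by 3.62 on the log2 scale in soleus vs EDL (SE 0.56, adjusted p = 0.0017), or 12.3-fold, and by 2.73 in soleus vs psoas (SE 0.54, adjusted p = 0.0060), or 6.62-fold. Without psoas 3 the latter was 3.67 (adjusted p = 8.2e-04), or 12.7-fold. The first call was made in 20 of 23 alternatives and lost with the trimming covariate (2.76, or 6.79-fold, adjusted p = 0.0147) and without EDL 1 (0.0125) or EDL 2 (0.0131). The second was made in 17 of 23, and the losses were the fit of only these muscles (0.0149), the trimming covariate (2.16, 0.0193), and the fits without psoas 1 (0.0231), psoas 2 (0.0315), soleus 2 (0.0160) or soleus 4 (0.0151), as adjusted p. Casq2 was the only one of the 9 genes higher by the test in soleus, in either comparison. In psoas vs EDL it was 0.90 (SE 0.53, adjusted p = 0.2846), and without psoas 3 it was −0.04. Psoas 3 also had the highest Myh2, the myosin of fast oxidative fibers, of the fast libraries, at 872 FPKM against 278 to 457; what this had to do with Casq2 was not tested.

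Per kilobase, Casq2 made up 1.07%, 1.02% and 0.889% of both calsequestrins in EDL, 0.899%, 1.15% and 3.08% in psoas, and 16.8%, 30.8%, 27.8% and 33.3% in soleus. The muscles differed in this share without overlap between slow and fast. The means were 0.992% ± 0.0921 (SD, n = 3), 1.71% ± 1.19 (SD, n = 3) and 27.2% ± 7.31 (SD, n = 4). Each soleus comparison had p = 0.0571 in the exact two-sided permutation test, the smallest that 4 against 3 libraries allow, and adjusted p = 0.229 over 12 tests. Among untrimmed libraries the soleus mean exceeded EDL 3 by 26.3 and psoas 3 by 24.1 percentage points, close to the 26.2 and 25.5 over all libraries. Soleus 1, with the lowest Casq2 share of that muscle, had its lowest Myh7 (785 FPKM against 958 to 1516) and its highest Myh1 (1629 FPKM against 486 to 994). What these myosins had to do with the Casq2 share was not tested. Casq1 still exceeded Casq2 in every soleus library. The sum of both was 898 ± 261 FPKM in EDL, 912 ± 108 FPKM in psoas and 381 ± 92.5 FPKM in soleus, with soleus (306 to 513) below each fast library (698 to 1194).

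**Figure D3:**
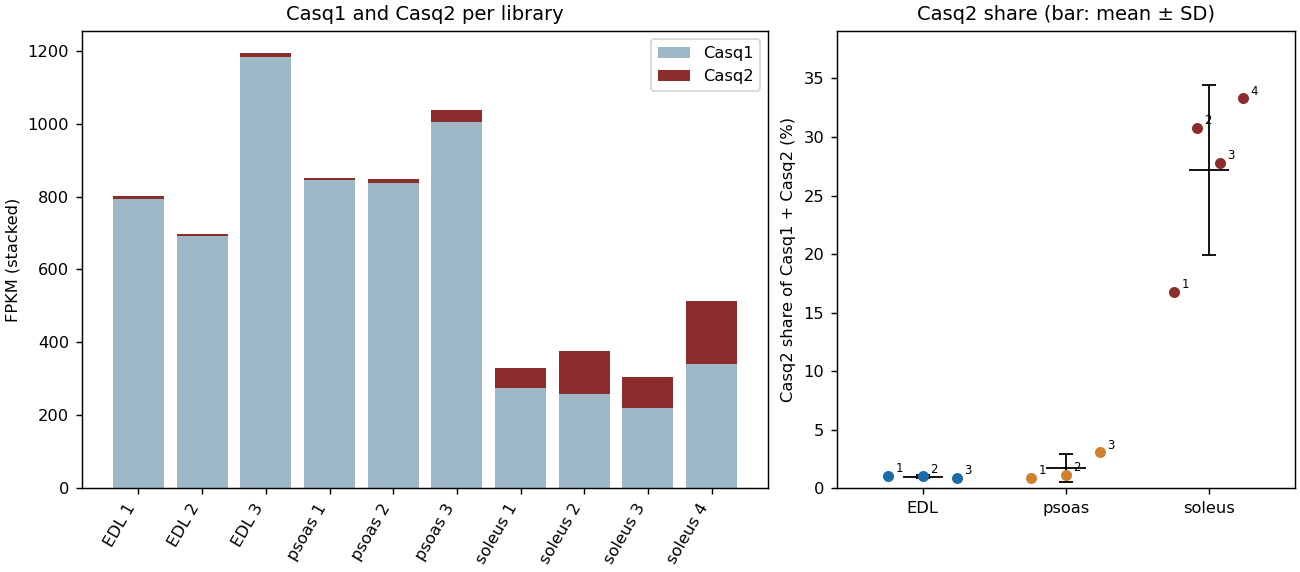
Left, stacked bars of Casq1 and Casq2 FPKM in each library. Right, the percent of Casq2 in their sum (y axis from 0), with libraries as numbered points and mean ± SD. Soleus libraries have the shortest bars and Casq2 shares of 16.8% to 33.3%, and psoas 3 has the highest share of the fast libraries, 3.08%.

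How reads that fit several places were counted is not given in the sources used here, and no mapping of reads was tested. Transcripts Casq1-201 (1847 bases) and Casq2-201 (2556 bases) shared no identical run longer than 25 bases. That run lies in the coding part near the end, where both proteins carry an acidic tail that binds calcium, and it is given in capitals from chr1:172210345-172210393 (minus strand) and chr3:102145322-102145386 (plus strand) of GRCm38.
Casq1: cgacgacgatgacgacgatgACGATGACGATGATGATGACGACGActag
Casq2: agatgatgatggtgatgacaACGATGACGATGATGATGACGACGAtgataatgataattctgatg
The coding part of Casq1 ends a few bases after the run while that of Casq2 goes on.

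Hrc (ENSMUSG00000038239, chr7:45335290-45338974, plus strand), which binds calcium in the store beside calsequestrin, did not follow Casq1. It was at 172, 181 and 203 FPKM in EDL, at 215, 200.1 and 207 FPKM in psoas and at 180.0, 148, 208 and 159.9 FPKM in soleus. All groups overlapped. Its log2 fold changes were 0.14 (SE 0.18, adjusted p = 0.6501), −0.09 (SE 0.17, adjusted p = 0.7408) and −0.23 (SE 0.17, adjusted p = 0.4119) in psoas vs EDL, soleus vs EDL and soleus vs psoas. Over the 23 alternatives they stayed between −0.46 and 0.21.

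Pvalb (ENSMUSG00000005716, chr15:78191114-78206400, minus strand) encodes parvalbumin. It was at 4352, 4494 and 7794 FPKM in EDL, at 6237, 5621 and 6097 FPKM in psoas and at 316, 72.9, 78.3 and 324 FPKM in soleus. The fast muscles overlapped, and soleus lay below both in each library and fell in a high and a low pair. Pvalb fell by 4.80 on the log2 scale in soleus vs EDL (SE 0.57, adjusted p = 3.8e-04), or 27.9-fold, and by 4.89 in soleus vs psoas (SE 0.58, adjusted p = 3.5e-04), or 29.7-fold. Both calls were made in 23 of 23 alternatives, with adjusted p up to 0.0075 and 0.0050. Psoas vs EDL gave 0.09 (SE 0.55, adjusted p = 0.9392). The low soleus pair did not share its Myh4 level, and what Myh4 or age had to do with Pvalb was not tested. Soleus 2, at 72.9 FPKM of Pvalb, had 18.1 FPKM of Myh4, while soleus 3, at 78.3 FPKM of Pvalb and from the youngest mouse (32 days), had 284 FPKM of Myh4 beside 256 and 251 in soleus 1 and soleus 4. Animal 765A, the source of soleus 2, had the highest Pvalb of all libraries in its EDL, at 7794 FPKM, and its soleus held 0.00935 times that level. In animals 659 and 765B soleus held 0.0507 and 0.0531 times the Pvalb of psoas.

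**Figure D4:**
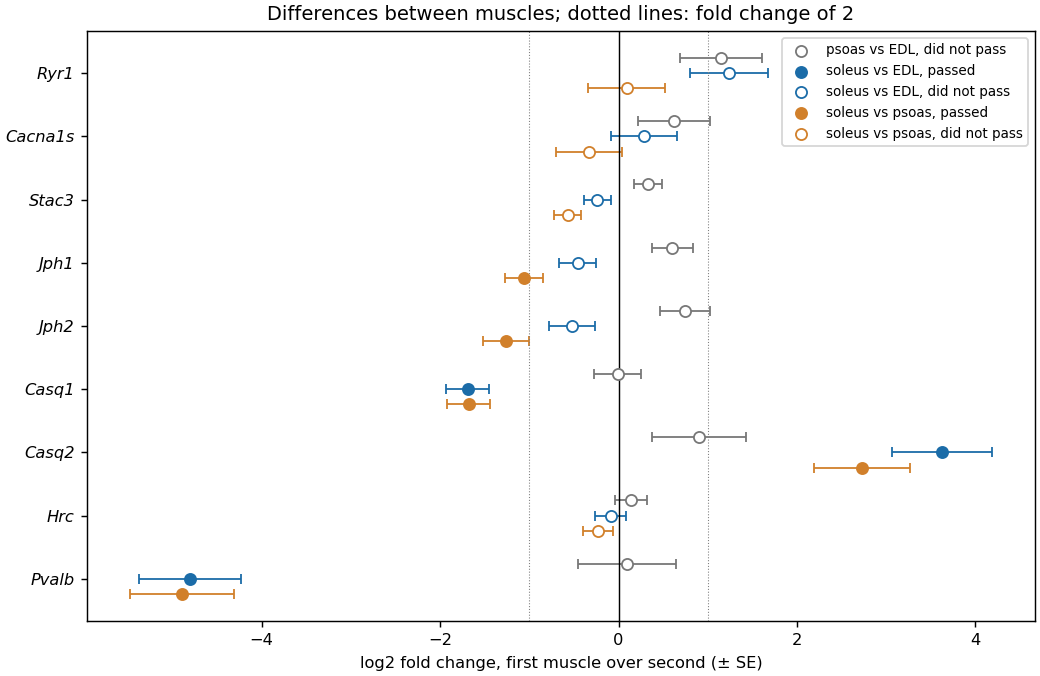
log2 fold change (x axis) ± SE of the 9 genes from edgeR's quasi-likelihood fit in the 3 comparisons, the first named muscle over the second; filled symbols passed the test and open ones did not, and dotted lines mark a fold change of 2. Pvalb and Casq1 lie to the left and Casq2 to the right in both soleus comparisons, and no gene passed in psoas vs EDL.

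The start regions of the 3 genes that passed in both soleus comparisons are given for reference, as RefSeq windows of GRCm38.p6 from 250 bases before to 50 after a transcript start, 5′ to 3′ along the gene. Capitals mark CANNTG, the E-box letters that myogenic factors can bind and which read the same on both strands. The windows are chr1:172219846-172220145 (minus) for Casq1, chr3:102086165-102086464 (plus) for Casq2 and chr15:78206351-78206650 (minus), the upstream one of 2 windows, for Pvalb.
Casq1: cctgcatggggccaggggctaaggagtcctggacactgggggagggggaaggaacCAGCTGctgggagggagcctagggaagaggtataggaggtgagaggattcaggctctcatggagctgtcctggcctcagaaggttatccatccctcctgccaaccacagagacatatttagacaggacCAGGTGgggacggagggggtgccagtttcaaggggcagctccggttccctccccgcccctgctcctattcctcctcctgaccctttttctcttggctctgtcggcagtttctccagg
Casq2: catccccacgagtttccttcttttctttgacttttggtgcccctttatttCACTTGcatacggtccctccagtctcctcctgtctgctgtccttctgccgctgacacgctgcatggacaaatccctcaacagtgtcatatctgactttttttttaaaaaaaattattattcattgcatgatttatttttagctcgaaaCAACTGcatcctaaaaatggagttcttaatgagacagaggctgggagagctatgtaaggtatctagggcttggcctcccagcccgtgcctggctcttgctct
Pvalb: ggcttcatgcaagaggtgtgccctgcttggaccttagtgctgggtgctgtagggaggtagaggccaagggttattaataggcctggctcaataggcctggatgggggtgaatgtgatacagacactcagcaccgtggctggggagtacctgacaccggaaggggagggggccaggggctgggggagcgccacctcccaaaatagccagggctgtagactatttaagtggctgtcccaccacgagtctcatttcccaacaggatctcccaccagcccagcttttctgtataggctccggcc
Casq1 and Casq2 held 2 matches each and this Pvalb window held 0, while the other Pvalb window held 2. Of all 32851 windows of the same length, 72.3% held at least 1 match and 39.6% at least 2, so such matches are common. A match is a run of letters and not a site shown to be bound.

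Likeness of profile was taken as the root mean square difference of centred log2 normalized CPM over the 10 libraries, among 6014 genes. Jph1 had H6pd nearest (0.0943), before Togaram1 (0.160) and Cdkal1 (0.161). The nearest to Jph2 was Camk2g (0.165), a calmodulin-dependent kinase subunit, before Ociad2 (0.190) and Eif4g3 (0.197). Casq1 was closest to Reep1 (0.194), Slc43a1 (0.230) and Mylpf (0.234), the last a fast myosin light chain. Casq2 was closest to Klhl34 (0.397), Inpp4b (0.406) and Homer2 (0.446). Pvalb had Actn3 (0.538), the alpha-actinin of fast fibers, Mybpc2 (0.667), the fast myosin binding protein C, and Mstn (0.674), the growth inhibitor myostatin. Jph1 and Jph2 were nearest to each other among the 9 genes, at 0.317, while the nearest of the 9 to Casq2 was Ryr1 at 1.40 and to Pvalb was Casq1 at 1.80, in the same measure. Genes with the steepest differences have the widest distances, and the 10 libraries are the same for all pairs.

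The other genes of calcium handling were taken in 6 lists of 50 measured genes. Of these, 2 passed in psoas vs EDL (both higher), 7 in soleus vs EDL (3 higher and 4 lower) and 8 in soleus vs psoas (2 higher and 6 lower). The shares were 4.00%, 14.0% and 16.0%, where 2.11%, 5.77% and 5.69% of all genes passed, and the median log2 fold changes 0.24, 0.07 and −0.19. Adjacent to the release unit, 17 partner genes gave 1, 3 and 4 calls in these comparisons, or 5.88%, 17.6% and 23.5%. Sypl2, which encodes mitsugumin-29 of the triad, was at 2.59, 2.11 and 3.09 FPKM in EDL and 11.9, 6.80 and 8.32 FPKM in psoas, and it rose by a log2 value of 1.78 in psoas vs EDL (SE 0.31, adjusted p = 0.0071). That call was made in 13 of 23 alternatives and was lost when EDL 1, EDL 2, any psoas library, soleus 1, soleus 2 or soleus 4 was left out, with adjusted p from 0.0108 to 0.0367, and also in the fit of only these muscles (0.0115) and with the replicate block (0.0187). Tmem38b, a counter-ion channel of the store, rose in soleus vs EDL by 1.62 (SE 0.17, adjusted p = 1.4e-04), in 23 of 23 alternatives. Cacng1, the gamma subunit of the voltage sensor, fell by 1.12 in soleus vs EDL (SE 0.22, adjusted p = 0.0060) and by 1.10 in soleus vs psoas (SE 0.22, adjusted p = 0.0068), with 13 and 15 of 23 alternatives. It was at 11.7 to 19.0 FPKM in EDL, 13.4 to 14.7 FPKM in psoas and 4.79 to 8.95 FPKM in soleus.

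Calmodulin, a calcium sensor that also binds the release channel, is made from 3 genes. Calm2 fell by 1.18 on the log2 scale in soleus vs psoas (SE 0.14, adjusted p = 4.3e-04; 22 of 23 alternatives, lost with the run proxy at 0.0116), from 134 to 167 FPKM in psoas to 64.2 to 67.8 FPKM in soleus. Calm3 fell by 1.28 there (SE 0.21, adjusted p = 0.0020; 19 of 23) and by 1.16 in soleus vs EDL (SE 0.21, adjusted p = 0.0036; 17 of 23). Homer1, a scaffold protein, fell by 1.19 in soleus vs psoas (SE 0.20, adjusted p = 0.0025; 18 of 23). That call was lost with the trimming covariate (−0.92, adjusted p = 0.0253), the run proxy (−0.91, 0.0623) and the replicate block (0.0162), and without psoas 1 (0.0101) or psoas 2 (0.0160). Calm3 lost its call in soleus vs EDL without EDL 2, soleus 1 or soleus 4 (adjusted p 0.0104 to 0.0189), and in soleus vs psoas without psoas 2 (0.0110). Both calls of Calm3 were lost with the trimming covariate (0.0172 and 0.0119), the run proxy (0.0718 and 0.0406) and the replicate block (0.0156 and 0.0115), in that order of comparisons and as adjusted p. For Cacng1 the calls were lost without soleus 1, 2 or 4 in both comparisons, without any EDL library or psoas 2 in soleus vs EDL and without any psoas library in soleus vs psoas, with adjusted p up to 0.0200 and 0.0292. Both were also lost with the trimming covariate (0.0102 and 0.0101) and the replicate block (0.0148 in each), and the one in soleus vs EDL in the fit of only these muscles (0.0137).

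Among 7 measured relatives of the channel and its partners (of 11 listed), Itpr1, an inositol trisphosphate receptor, fell by 1.01 on the log2 scale in soleus vs EDL (SE 0.17, adjusted p = 0.0024), just past the fold threshold and in 14 of 23 alternatives. The call was lost with the trimming covariate (−0.89, adjusted p = 0.0258) and the run proxy (−0.72, 0.0897). The fold was under 2 with sex as covariate (−0.94), with the animal as random effect (−0.96) and with thinned counts (−0.98), and leaving out EDL 1, EDL 2, soleus 1 or soleus 3 also ended the call. It was at 1.98 to 2.65 FPKM in EDL and 0.953 to 1.37 FPKM in soleus. The other ryanodine receptors were far below Ryr1, with Ryr3 at 0.00674 to 0.377 FPKM and Ryr2 at 0.00444 to 0.0148 FPKM over the 10 libraries. Of 6 triad membrane genes, Speg, a kinase of the triad, rose by 1.39 in psoas vs EDL (SE 0.23, adjusted p = 0.0061), in 14 of 23 alternatives; every EDL or psoas library except EDL 3, and soleus 1 or soleus 4, ended the call when left out (adjusted p 0.0104 to 0.0345), as did the fit of only these muscles (0.0170) and the replicate block (0.0204). None of 5 other luminal calcium-binding genes passed in any comparison. Of 6 store-operated entry genes, Stim2, a calcium sensor of the store, fell by 2.03 in soleus vs psoas (SE 0.31, adjusted p = 0.0016; 20 of 23), from 7.21, 4.10 and 2.29 FPKM in psoas to 0.963 to 1.41 FPKM in soleus. The untrimmed psoas 3 was the nearest to soleus, and the call was lost with the trimming covariate (−1.57, adjusted p = 0.0216), the run proxy (−1.70, 0.0349) and the replicate block (−1.91, 0.0174).

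Calcium removal held the steepest difference of the lists. Atp2a2, the slow and cardiac calcium pump of the store, was at 2.86 to 12.8 FPKM in EDL, at 3.73 to 6.18 FPKM in psoas and at 595, 866, 1097 and 763 FPKM in soleus. It passed in 23 of 23 alternatives in both soleus comparisons (134-fold and 171-fold higher). Without EDL 3 the first was 285-fold, and with the trimming covariate the folds were 87.7 and 87.0. Atp2a1, the fast pump, was at 416 to 1147 FPKM in EDL, at 1010.2 to 1659.7 FPKM in psoas and at 377 to 572 FPKM in soleus, and did not pass. Without EDL 3 it passed in psoas vs EDL (1.55, adjusted p = 0.0081), and in soleus vs psoas its log2 fold change of −1.43 passed in 6 of 23 alternatives, among them the trimming covariate (−2.06, adjusted p = 0.0024) and the run proxy (adjusted p = 0.0096). Micu2, a regulator of mitochondrial calcium uptake, rose by 1.67 (SE 0.23, adjusted p = 7.5e-04; 22 of 23, lost with the run proxy at 0.0141) in soleus vs EDL. In soleus vs psoas it rose by 1.27 (SE 0.22, adjusted p = 0.0032; 19 of 23), and this call was lost with the trimming covariate (0.93, adjusted p = 0.0194) and the run proxy (0.83, 0.0546), and without psoas 1 (0.0188) or psoas 2 (0.0168). Slc8a1, a sodium-calcium exchanger at under 1 FPKM in every library, fell by 1.14 in soleus vs EDL (SE 0.21, adjusted p = 0.0046; 15 of 23) and by 1.55 in soleus vs psoas (SE 0.21, adjusted p = 8.4e-04; 22 of 23). The second of these was lost with the run proxy (0.0218). The first was lost with the trimming covariate (−0.90, adjusted p = 0.0511), the run proxy (−0.90, 0.1201), sex as covariate (0.0128) and the replicate block (0.0152), and without EDL 2 or soleus 2, 3 or 4 (adjusted p 0.0107 to 0.0289).

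**Figure D5:**
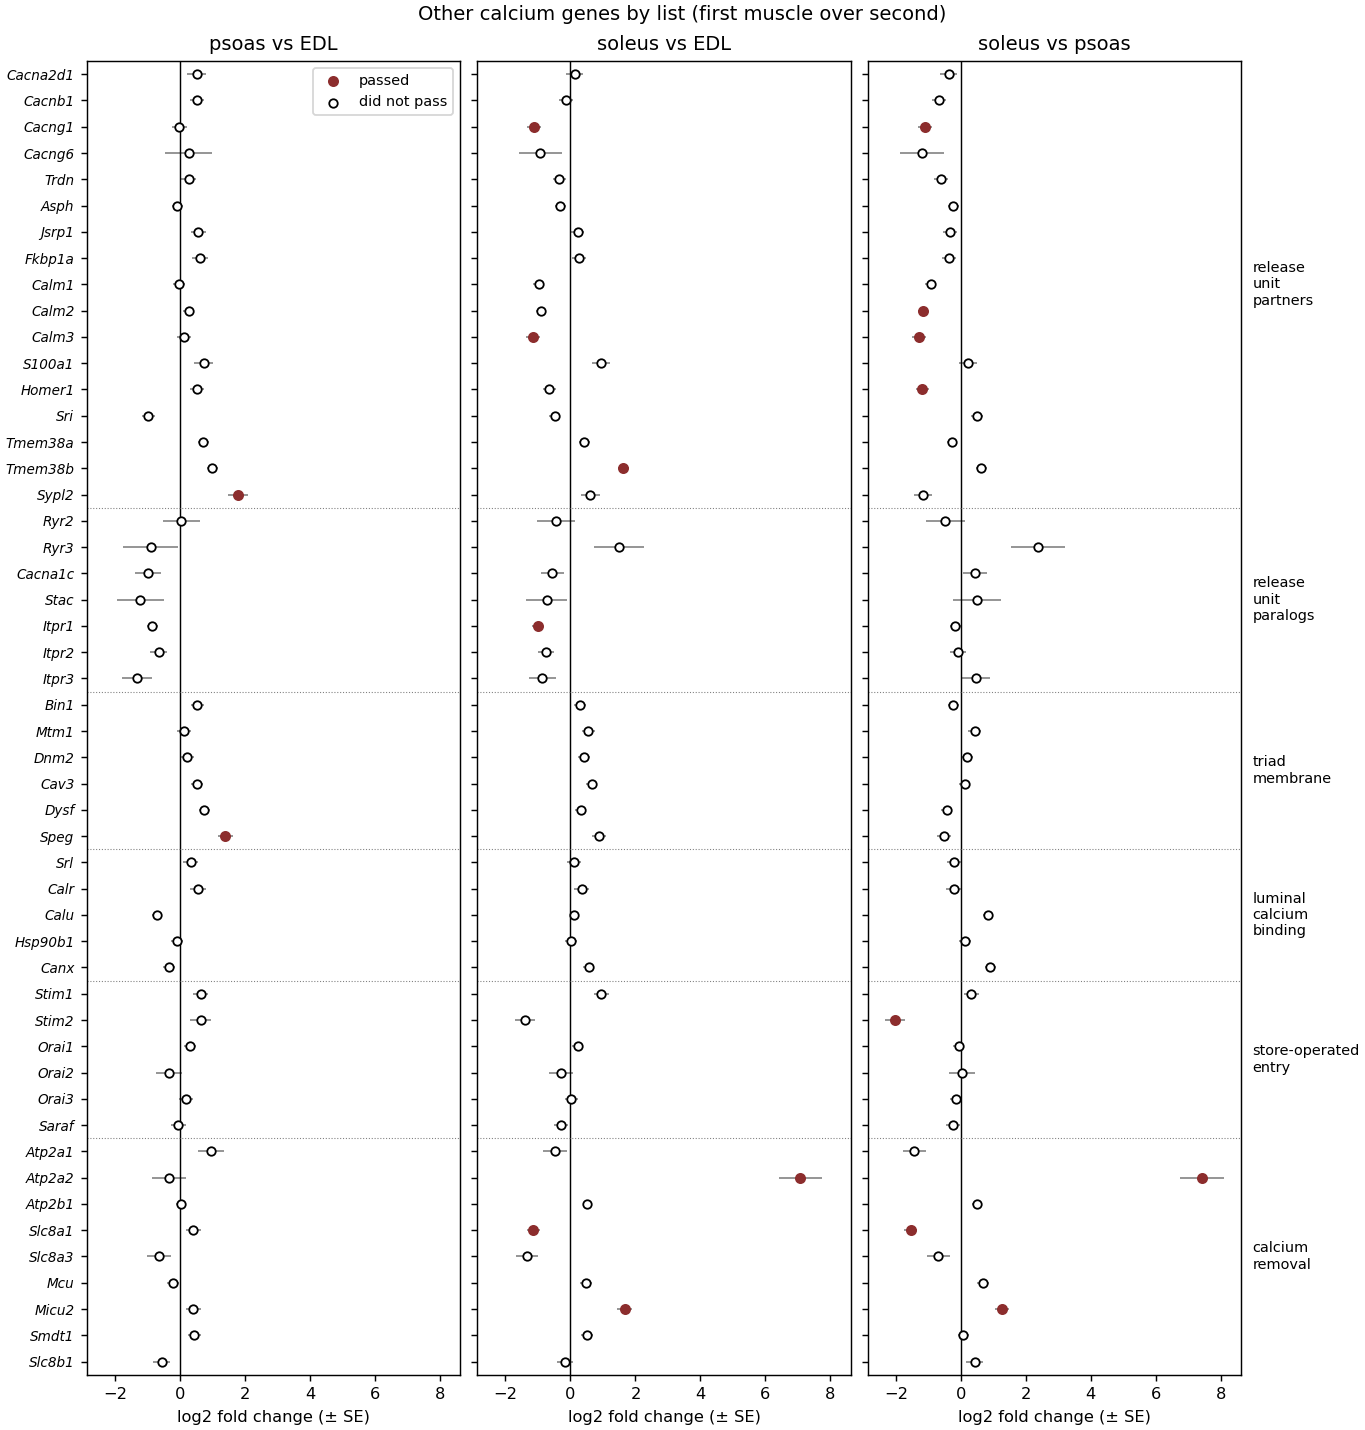
log2 fold change ± SE (x axes, the same in all panels) of 50 other calcium genes, grouped by list, in psoas vs EDL, soleus vs EDL and soleus vs psoas; filled symbols passed the test. Atp2a2 stands far to the right in both soleus panels, and 2, 7 and 8 genes are filled in the 3 panels.

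Reads of a gene and of an overlapping gene on the other strand cannot be told apart unless the counting used the strand, which the sources used here do not state, although the kit kept it. Gm26604 shares 864 exon bases with Ryr1, Gm37759 shares 1309 with Cacna1s and Gm17224 shares 156 with Casq1, all antisense. Their own counts were at most 0.211%, 1.20% and 0.990% of those of the 3 genes in any library. These shares do not bound the effect of the overlap, because how reads that fit both genes were counted is not given.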

How the data were processed

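Total RNA of 10 muscles was made into libraries with a stranded kit and sequenced in pairs by the authors, who trimmed 4 libraries (Trimmomatic 0.32), aligned to mm10 (GRCm38.p4) with TopHat2 2.1.1, counted reads per gene with GenomicAlignments, and dropped genes with fewer than 3 samples reaching 10 reads. The deposited values are raw read counts of 16112 genes per library, and 16032 received a symbol from GENCODE M21 of GRCm38. Samples were grouped by muscle from the labels.

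Counts were fitted over all 10 libraries with edgeR 4.0.16 in R 4.3.3 (TMM, quasi-likelihood test, no covariate). Calls needed a fold change over 2 and p under 0.01 after Benjamini-Hochberg adjustment; SE was the log2 fold change divided by the root of F. Normalized CPM was scaled by TMM, while FPKM was computed by DESeq2 with its own size factors, per kilobase of summed exons. Ratios within libraries were compared by exact two-sided permutation tests (p as 2 times the smaller tail). Alternatives used DESeq2 1.42.0, limma 3.58.1, other scalings, filters, thresholds and covariates, counts thinned to 12737971, and each library left out. Tested on simulated data with 200 of 16112 genes changed by a log2 fold of 3, edgeR recovered 99% in soleus vs EDL and 98.5% in soleus vs psoas, with 1 and 3 false calls. The simulation held no change near a fold of 2, no trimming and no shared animals, so it does not bear on calls near that fold.

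The 9 genes and all lists were chosen with earlier results of these data known, and 1 gene of the lists is not reported here. All 9 are named; from each further list, genes called in a comparison, at most 4 by size of change; and for called members the 3 nearest profiles among genes with a mean of at least 10 normalized CPM and a pseudocount of 0.5. Libraries that share a replicate number correlated from −0.364 to 0.606, so the numbers were not taken as pairs. P-values set a difference between muscles against the spread between libraries. The fit reported and the permutation tests took the libraries as independent, although some share an animal.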

Additional observations from a re-analysis of the deposited data

How the results depend on the processing

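The calls of Pvalb and Casq1 in both soleus comparisons were made under all 23 alternatives to the fit. With 3 or 4 libraries per muscle, with trimming absent from soleus and with sex, age and trimming tied within EDL and psoas, differences under a fold of 2 were not resolved. Of 621 log2 fold changes of the 9 genes under alternatives, 564 kept direction and side of the threshold, 30 lost their call, 4 gained one and 23 turned direction; the causes were not tested.

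Genes called in psoas vs EDL, soleus vs EDL and soleus vs psoas were 340, 929 and 917 in the fit reported. They were 1233, 1853 and 1563 at adjusted p under 0.05, 1095, 1520 and 1383 with DESeq2, 605, 371 and 566 with the trimming covariate, and 757, 251 and 475 with the run proxy (trimmed, untrimmed at 44 days, other). In psoas vs EDL they were 153 in a fit of these muscles and 865 with sex as covariate. Without 1 library they ran from 61 (without psoas 2) to 963 (without EDL 3), from 385 (without EDL 1) to 1511 (without EDL 3) and from 493 (without psoas 2) to 964 (without EDL 3). Of the 9 genes, 0 to 2, 2 to 4 and 2 to 5 were called without 1 library, and 3 in soleus vs psoas with the run proxy. With the replicate number as a block, all genes called were 146, 586 and 539, and 3 of the 9 genes were called in soleus vs psoas; the block changed no other call among the 9.

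Directions that turned all belonged to differences that were not called. Ryr1 in soleus vs psoas (0.09) became −0.70 with the trimming covariate, −0.56 with the run proxy, −0.09 with sex, −0.03 with the animal as random effect, −0.09 without psoas 2 and −0.11 without soleus 2, with up to 0.29 without another library. Cacna1s in soleus vs EDL (0.29) became −0.36 with the trimming covariate and with the run proxy and ran from −0.05 (without EDL 1) to 0.95 without 1 library, and in soleus vs psoas from −0.52 to 0.09 (without psoas 3). Casq1 in psoas vs EDL (−0.01) became 0.01 with DESeq2, limma-voom, DESeq2 size factors, the replicate block and without psoas 1, 0.02 with the trimming covariate and the run proxy, and 0.04 without psoas 2, and ran from −0.16 to 0.25 (without EDL 3) without 1 library. Casq2 in psoas vs EDL (0.90) ran from −0.04 (without psoas 3) to 1.21. Pvalb in psoas vs EDL (0.09) became −0.23 with the animal as random effect, and ran from −0.08 (without EDL 1) to 0.42 without 1 library, with −0.04 without EDL 2. The Jph2 share, 0.192 percentage points higher in soleus than in EDL, became −6.10 in untrimmed libraries and ran from −1.43 to 3.34 without 1 library; in soleus vs psoas it ran from −7.93 to 0.0639. The Stac3 to Cacna1s ratio, lower in soleus, was 0.0222 above EDL and 0.0692 above psoas in untrimmed libraries.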
